A study of Mus musculus with 2 samples.

Results

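The 755 genes described here held m6A sites in the cerebrum list and none of the motif sites in the cerebellum list. They were chosen by the measured lists themselves: an autosomal protein-coding gene entered when its interval, on its own strand, held 3 or more sites in a DRACH context in the cerebrum and 0 such sites in the cerebellum. DRACH is the 5-base motif in which m6A is mostly placed: any base but C, then a purine, the methylated A, a C, and any base but G. The rule took 755 of the 6720 genes with 3 or more cerebrum DRACH sites, which is 11.2% (95% Wilson interval 10.5 to 12.01), out of 20807 autosomal protein-coding genes in all. The genes carried 3858 different sites of the 85473 autosomal DRACH sites of the cerebrum, against 47779 in the cerebellum. A site that lies in overlapping genes counts for each of them, which gives 3930 pairs of a gene and a site. The sites came from GLORI, a treatment with glyoxal and nitrite that deaminates unmethylated adenosines so that they are read as G, while m6A is still read as A. GLORI was run on poly(A)+ RNA of 1 cerebellum and 1 cerebrum, both described as from a female mouse on postnatal day 0 (P0) of the F1r cross, so that the tissues may share 1 animal. In F1r the mother is C57BL/6J (C57) and the father PWK/PhJ (PWK). The lists hold 79355 cerebellum and 188295 cerebrum sites of any context by position and strand alone, so the methylation level and read depth behind each site are unknown. A site absent from a list can be unmethylated, its transcript can be missing from the tissue, or its coverage can be too thin, and these cannot be told apart. With 1 library per tissue no test between tissues was possible, and every difference below is one between these 2 libraries. Intervals are 95% Wilson intervals that treat genes or sites as independent and cover counting error only.

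m6A is written on nascent mRNA by the METTL3–METTL14 methyltransferase complex and is read by YTH proteins, which affect the stability and translation of the transcript. It is found mostly in long last exons, near stop codons and in 3′ UTRs. The exon junction complex keeps it from short internal exons. The cerebrum develops from the forebrain, where dorsal progenitors give the excitatory neurons of the cortex and hippocampus and ventral progenitors give the striatal neurons and the GABAergic interneurons. The cerebellum develops from the hindbrain and uses other transcription factors for its neurons.

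The sequences below show, for 10 of the 12 genes with the most cerebrum DRACH sites, the site nearest to the stop codon with 10 nt on either side. They are given so that the motif can be read in place. Sequences are GRCm38, 5′ to 3′ on the strand of the gene, with the DRACH 5-mer in capitals and the methylated adenosine at its centre. The stop distance is counted in the spliced transcript from the last base of the stop codon, which is 0, and is negative upstream of it.
Pogz (chr3:94880221-94880241, plus strand, CDS, stop distance -101 nt): tcctgaagAGACAgtcgagcc
Pag1 (chr3:9693876-9693896, minus strand, CDS, stop distance -119 nt): agccatacAGACTctaaacag
Met (chr6:17571847-17571867, plus strand, 3′ UTR, stop distance 34 nt): cttccaagAAACAgttctggc
Dlx1 (chr2:71532396-71532416, plus strand, CDS, stop distance -112 nt): tggaatccGAACTcctcatct
Cttnbp2nl (chr3:105004613-105004633, minus strand, 3′ UTR, stop distance 27 nt): tccacattTGACAttccatca
Lingo1 (chr9:56619422-56619442, minus strand, 3′ UTR, stop distance 27 nt): gggcacagGGACCccccaccc
Fosl2 (chr5:32153154-32153174, plus strand, CDS, stop distance -25 nt): gactccttGAACTcccccaca
Trpc4 (chr3:54318106-54318126, plus strand, CDS, stop distance -40 nt): agccccacGGACAcagctgcc
Klhl11 (chr11:100462829-100462849, minus strand, 3′ UTR, stop distance 25 nt): gcagctgaAAACTgttctccc
Sla (chr15:66782529-66782549, minus strand, 3′ UTR, stop distance 3 nt): aagattaaTGACCtggcttgt

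In some genes the methylated adenosine was part of the stop codon itself. This was so for 12 of the 3529 sites that lay on coding isoforms (0.340%, 0.195 to 0.593), always at its last base, the only base of a stop codon that the motif allows. The genes with exactly 1 cerebellum DRACH site had 18 of 3990 (0.451%, 0.286 to 0.712), with overlapping intervals. The genes with such a site included Pdzrn3, with 8 cerebrum DRACH sites in all, and the transcription factor Sp8, with 5, both named after their values were seen. The same window is shown for 10 further genes that stood on a gene list and had 10 or more sites, a choice made after their values were seen.
Nr4a3 (chr4:48083284-48083304, plus strand, CDS, stop distance -58 nt): aagctagaGGACTtggtacct
Lhx6 (chr2:36083863-36083883, minus strand, 3′ UTR, stop distance 182 nt): cctgctgaGAACCagaaccca
Tbr1 (chr2:61812391-61812411, plus strand, CDS, stop distance -37 nt): tgcgccaaGGACAtaggcggc
Ntsr1 (chr2:180543093-180543113, plus strand, 3′ UTR, stop distance 323 nt): ttgttcccAGACTaatggatg
Neurod1 (chr2:79453901-79453921, minus strand, 3′ UTR, stop distance 53 nt): gcgtacagTGACTgtcctgtt
Fezf2 (chr14:12342500-12342520, minus strand, CDS, stop distance -14 nt): cctagccaGGACAgttcagag
Isl1 (chr13:116299466-116299486, minus strand, 3′ UTR, stop distance 4 nt): ggcatgagGAACAttcattca
Drd1 (chr13:54052910-54052930, minus strand, CDS, stop distance -67 nt): gtcatattGGACTatgacacc
Rarb (chr14:16432028-16432048, minus strand, 3′ UTR, stop distance 33 nt): attccccaGGACCttcagttc
Dlx2 (chr2:71544499-71544519, minus strand, 3′ UTR, stop distance 11 nt): cctcgagtGGACAgcgtctga

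The number of sites per gene ran from 3 to 37 with a median of 4. Exactly 3 sites were held by 311 genes (41.2%), 5 or more by 281, and 10 or more by 69. The share of genes without a cerebellum DRACH site fell as the number of cerebrum sites rose. Among genes with 3 cerebrum sites 311 of 1001 had none in the cerebellum (31.1%, 28.3 to 34.0). Among genes with 10 or more the share was 69 of 2788, or 2.47%, and among those with 30 or more it was 3 of 519 (0.578%, 0.197 to 1.69). Pogz and Pag1 were among those 3 genes. Just below the threshold, 544 of 1169 genes with 2 cerebrum sites had 0 cerebellum sites (46.5%), as did 1156 of 1688 genes with 1 site (68.5%). On the cerebellum side, the nearest genes outside the rule were the 874 with exactly 1 cerebellum DRACH site. Among them Ptprk had 23 cerebrum sites, Frmd4b, Neurod2 and Npy1r 22 each, and Bhlhe22 21, and in each of these 5 genes the single cerebellum site was also a cerebrum site. In the opposite direction, 44 of 4378 genes with 3 or more cerebellum DRACH sites had 0 in the cerebrum (1.01%, 0.750 to 1.35), beside the longer cerebrum list.

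**Figure D1:**
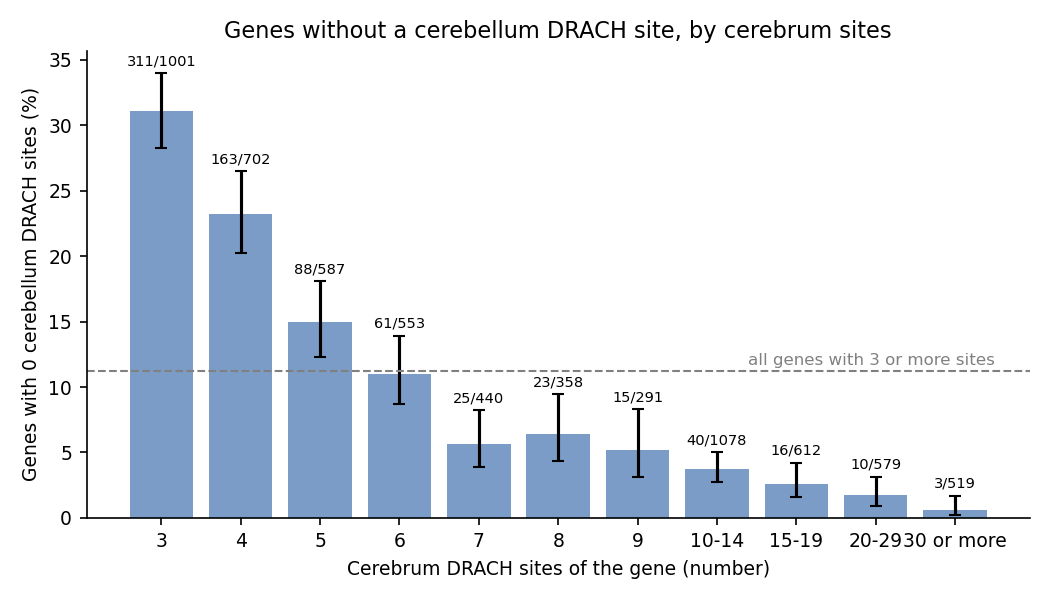
Percent of genes with 0 cerebellum DRACH sites (bars, with 95% Wilson intervals) against the number of cerebrum DRACH sites of the gene; the numbers above the bars are genes without a cerebellum site over all genes, and the dashed line is the 11.2% of all 6720 genes. The share falls from 31.1% at 3 sites to 0.578% at 30 or more.

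The 25 genes with the most sites had 15 to 37 each, 527 in all, and made up 13.4% of the pairs of a gene and a site. Pogz, a zinc finger chromatin protein found in many tissues, had 32 sites, with 14 in the CDS and 17 in the 3′ UTR. Pag1, a transmembrane adaptor of Src family kinase signalling, had 30 sites, 27 of them in the 3′ UTR. Met, the receptor tyrosine kinase for hepatocyte growth factor, had 28 sites, 10 in the CDS and 18 in the 3′ UTR. Dlx1, a homeobox factor of GABAergic neurons, had 27, of which 6 lay in the 5′ UTR, the highest number there among these 25 genes.

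The position of the sites differed between these genes. Sites lay mostly in the CDS in Lingo1, a leucine-rich repeat membrane protein of neurons, with 16 of 26. The same held for the kelch-like gene Klhl11, with 16 of 20. Trpc4, a cation channel, had 17 CDS sites of 21 and Tiam2, an activator of the GTPase Rac, 17 of 20. The opposite pattern was seen in Sla, a Src-like adaptor, with 19 of 20 sites in the 3′ UTR. Lhx6, a LIM homeobox factor of cortical interneurons, had 17 of 18 there, and Dio2, which converts thyroid hormone to its active form, 14 of 15. Cttnbp2nl had 18 of 26 in the 3′ UTR, the AP-1 subunit Fosl2 17 of 21, the orphan nuclear receptor Nr4a3 12 of 19, the leucine zipper protein Lzts1 12 of 16 and the neurotensin receptor Ntsr1 13 of 16. Kcnj3, a subunit of G protein-gated potassium channels, had 8 CDS, 4 3′ UTR and 4 intronic sites. Tmem184c had 14 of 16 sites in the CDS and the deubiquitinase family gene Usp53 8 of 16. Epha3, an ephrin receptor, had 7 CDS, 2 3′ UTR and 6 intronic sites. Some transcripts were densely listed. In Klhl11, 20 of the 46 DRACH adenosines of the longest coding isoform were sites (43.5%), and in Lingo1 26 of 60 (43.3%), while the median over the 744 genes with a complete coding isoform was 5.53%.

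**Figure D2:**
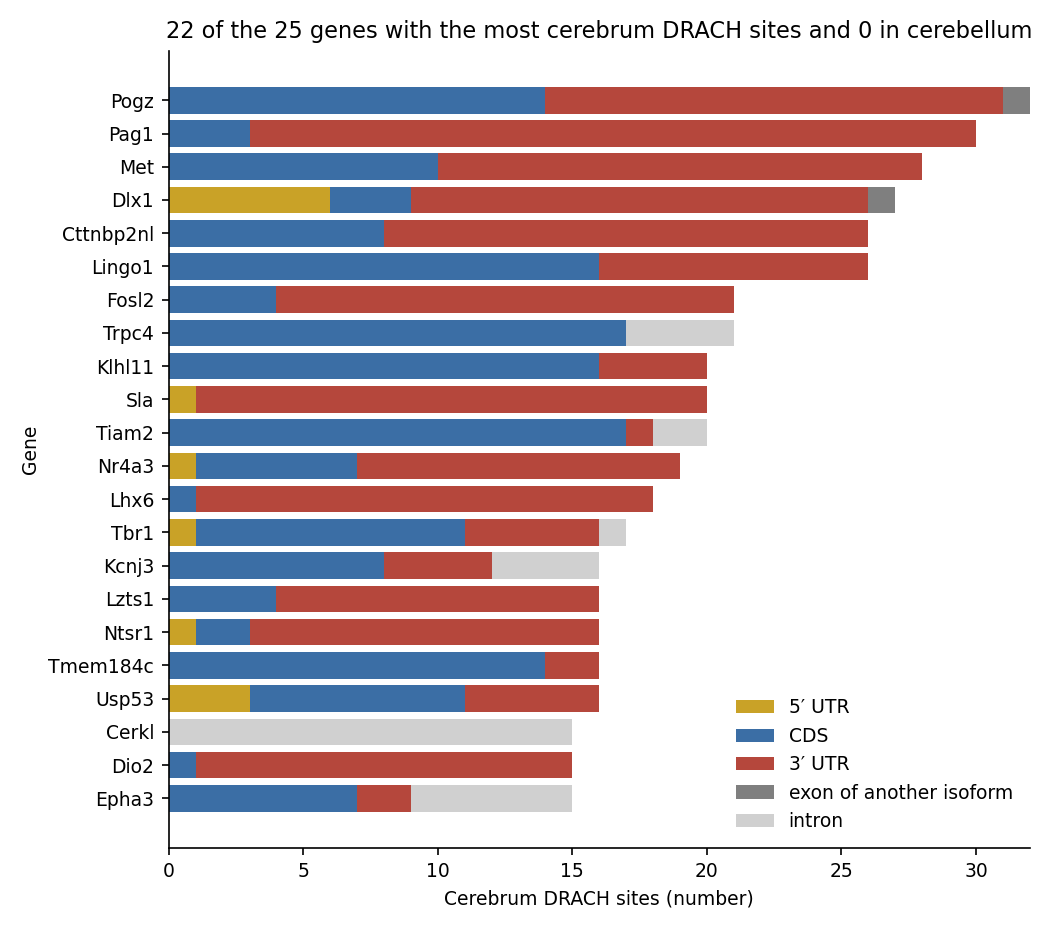
Number of cerebrum DRACH sites (bar length) in 22 of the 25 genes with the most sites, split by transcript region. Pogz has 32 sites and Pag1 30, the latter mostly in the 3′ UTR, while Lingo1, Trpc4, Klhl11 and Tiam2 hold most of theirs in the CDS.

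Some entries share their sites with a neighbour. All 15 sites of Cerkl lay in its introns and were the 15 sites of Neurod1, which lies within it on the same strand. Sites inside another protein-coding gene were found in 37 of the 755 genes. Klhl11 had 3 cerebellum and 5 cerebrum DRACH sites in the 5000 nt past its annotated end, where the other 24 of these genes had 0 cerebellum DRACH sites.

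Transcription factors of forebrain neurons were frequent among the genes with many sites. The factors of cortical and hippocampal excitatory neurons had 37 genes with 3 or more cerebrum DRACH sites, and 9 of these had 0 in the cerebellum (24.3%, 13.4 to 40.1), against 11.2% of all genes. The factors of the subpallium and of GABAergic neurons had 26 such genes, of which 11 had none in the cerebellum (42.3%, 25.5 to 61.1). Etv1 stands on both lists, so together they gave 19 of 62 genes. Among genes with 10 or more sites, 11 of the 42 genes on these lists had none in the cerebellum (26.2%), against 2.47% of all genes with as many sites. Of the 25 genes with the most sites, 6 were on these lists. The 25 cut through a tie at 15 sites, broken by symbol, which left out Neurod1 of the cortical list and kept Cerkl, with the same sites. The lists were written with earlier results of these data known, and their counts are a description.

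Among the excitatory factors, the orphan nuclear receptor Nr4a3 had 19 sites in the cerebrum and 0 in the cerebellum. Tbr1, a T-box factor of deep cortical layers, had 17 sites, 10 in the CDS and 5 in the 3′ UTR. Neurod1, Fezf2, Prdm8, Eomes and Etv1 had 4 to 15 sites. Neurod1, a bHLH factor of differentiating neurons that is also known from cerebellar granule cells, had 15 cerebrum DRACH sites and 0 cerebellum sites of any context. Fezf2, which specifies subcortical projection neurons, had 13 sites with 10 in the CDS. A further 5 genes of this list missed the rule by a single cerebellum DRACH site, namely Neurod2 (22 cerebrum sites), Bhlhe22 (21), Neurod6 (13), Pou3f1 (9) and Emx2 (5). Other cortical factors were well represented in both lists, such as Bcl11b with 54 cerebrum and 22 cerebellum sites and Cux2 with 45 and 20.

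Among the subpallial factors, Dlx1 had 27 sites, Lhx6 18 and the LIM homeobox factor Isl1 of striatal neurons 12, all 12 in the 3′ UTR. Rarb, a retinoic acid receptor, had 11. Dlx2, Dlx5, Dlx6, Sp8, Zfp503 and Etv1 had 4 to 10 sites. All 4 Dlx genes named here, 2 pairs of neighbouring homeobox genes that act in GABAergic neurons, were thus without a cerebellum DRACH site, with 27, 10, 7 and 8 cerebrum sites for Dlx1, Dlx2, Dlx5 and Dlx6. Of the 19 genes from both lists, 17 had 0 cerebellum sites of any context as well, and Nr4a3 and Rarb had 1 each outside DRACH. For scale, 523 of all 755 genes had 0 cerebellum sites of any context (69.3%).

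**Figure D3:**
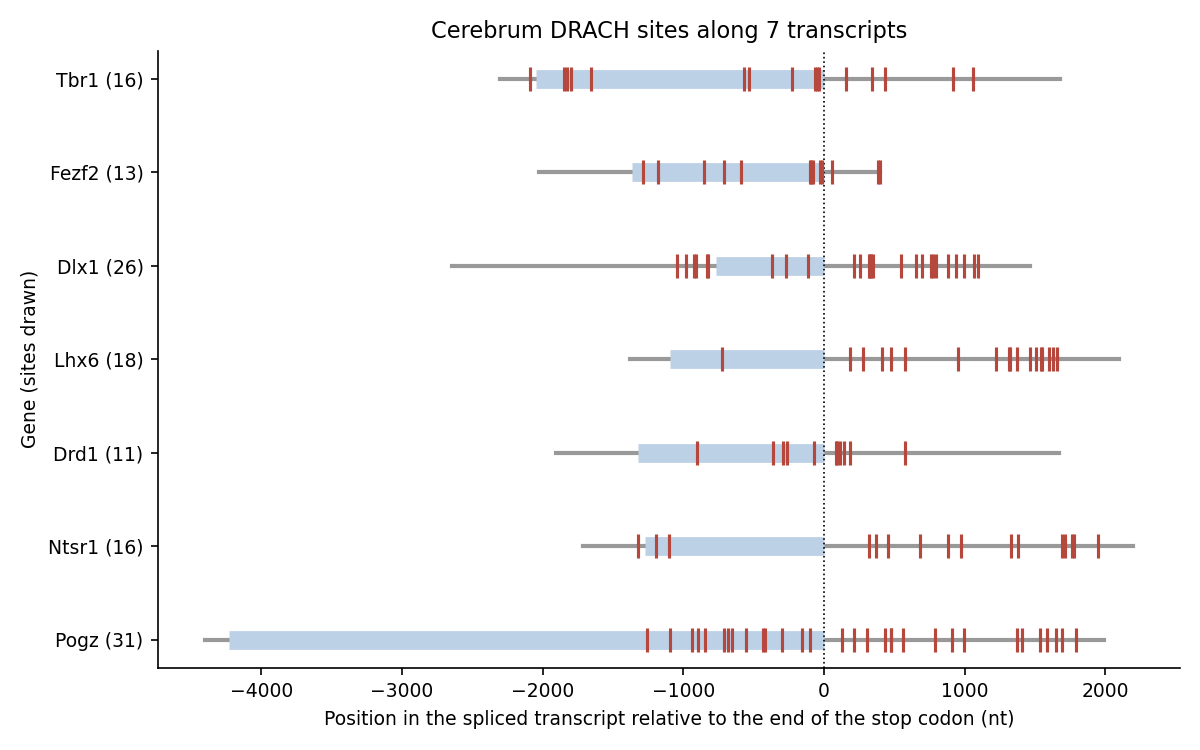
Cerebrum DRACH sites (red ticks) along the spliced coding isoform of 7 genes without a cerebellum DRACH site, with the coding sequence as a wide bar, the UTRs as grey lines and position in nt from the end of the stop codon; the number of sites drawn stands in brackets and sites off the isoform are left out. Sites of Lhx6 and Ntsr1 lie mostly in the 3′ UTR, those of Tbr1 and Fezf2 mostly in the coding sequence.

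Receptors and secreted signals formed the next groups. Of the 11 eligible striatal and interneuron signalling genes, meaning those with 3 or more cerebrum DRACH sites, 3 had none in the cerebellum (27.3%, 9.75 to 56.6). They included the dopamine receptors Drd1 with 11 sites and Drd2 with 3. In Drd1 the sites were split into 5 in the CDS and 6 in the 3′ UTR. The monoamine and acetylcholine receptors, which share Drd1 and Drd2 with that list, gave 5 of 15 (33.3%, 15.2 to 58.3), with the nicotinic subunits Chrna5 and Chrna7 at 6 and 5 sites and the muscarinic receptor Chrm1 at 4. The neuropeptide receptors gave 4 of 11 (36.4%, 15.2 to 64.6). Ntsr1 had 16 sites, the somatostatin receptor Sstr2 7, and the corticotropin-releasing hormone receptor Crhr1 and the opioid receptor Oprm1 3 each. The glutamate and GABA receptor subunits, the ion channels and receptors of fast transmission, gave 1 of 34 (2.94%, 0.521 to 14.9). That gene was the NMDA receptor subunit Grin2a, with 4 cerebrum DRACH sites and 7 cerebellum sites outside DRACH. The share of all genes falls with the number of sites, and 22 of the 34 subunit genes had 10 or more. Among genes with 10 or more sites, 0 of these 22 lacked a cerebellum DRACH site, against 2.47% of all genes. The monoamine and acetylcholine receptors then gave 1 of 6 and the neuropeptide receptors 1 of 5.

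The secreted ligands and antagonists of the Wnt, BMP and FGF families gave 8 of 17 genes (47.1%, 26.2 to 69.0). Wnt7a, a Wnt ligand, had 9 sites, Rspo3, which strengthens Wnt signalling, 6, Dkk3, of the Dickkopf family, 5, and Inhba, the activin subunit, 5. The other 4 were Gdf10, Rspo2, Fgf9 and Tgfb1 with 3 or 4 sites. Their site numbers were low, and none of the 4 listed genes of this group with 10 or more cerebrum sites lacked a cerebellum DRACH site.

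Lists for other cell types were short and their intervals wide. For scale, 31.1% of all genes with 3 cerebrum DRACH sites had 0 in the cerebellum. The radial glia and astrocyte markers gave 3 of 14 (21.4%, 7.57 to 47.6), namely Nes with 5 sites and Gfap and Hes1 with 3 each. The meningeal fibroblast markers gave 2 of 7, Lum with 5 sites and Col6a3 with 3. The choroid plexus and ependyma markers gave 2 of 3, Foxj1 and Kcnj13 with 3 each, and the endothelial and mural markers 1 of 6, Ptprb with 3. No gene came from the 9 eligible oligodendrocyte markers, the 2 of microglia and macrophages, the 3 of the hypothalamus and thalamus or the 7 of the cerebellum and hindbrain, and no red blood cell marker was eligible. The part that the makeup of the dissected tissue had in these counts was not tested. The reverse was seen in 6 cerebellar and hindbrain genes, on a list written with earlier results of these data known. They had 3 or more cerebellum but 0 cerebrum DRACH sites, among them Tfap2b with 17, Barhl1 with 11 and En2 with 8. So did 4 genes of the hypothalamic and thalamic list, Sox14, Irx1, Irx2 and Irx5, with 4 to 10 cerebellum sites. Other genes of the cerebellar list had more sites in the cerebrum, such as Zic4 with 18 against 4 and Cbln1 with 15 against 11.

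**Figure D4:**
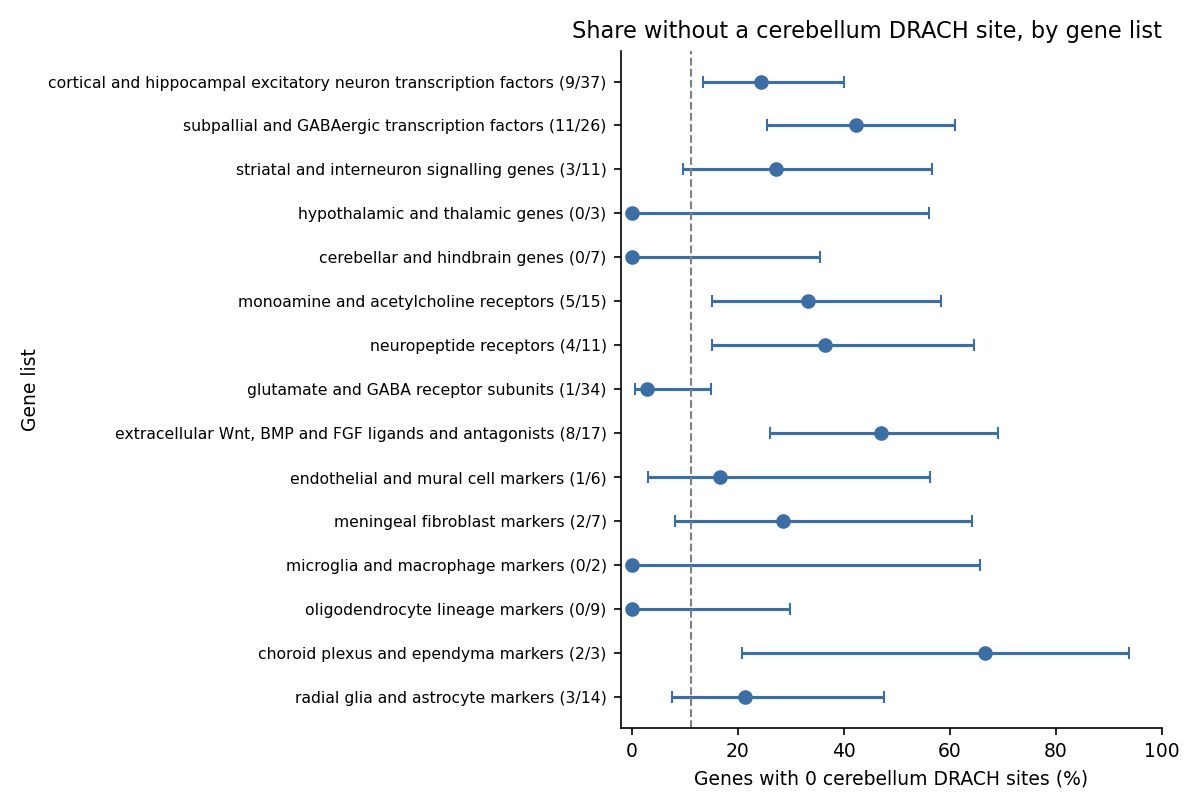
Percent of the eligible genes of each list (3 or more cerebrum DRACH sites) with 0 cerebellum DRACH sites, with 95% Wilson intervals; counts stand in brackets and the dashed line is the 11.2% of all genes. The subpallial factors and the secreted ligands lie above the line with their whole intervals, as do the cortical factors, the monoamine and acetylcholine receptors, the neuropeptide receptors and the choroid plexus list of 3 genes. The line is not matched for the number of sites per gene. The share of all genes is 31.1% at 3 cerebrum sites and 2.47% at 10 or more.

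By symbol, C2H2 zinc finger genes were the largest class, with 36 of 289 eligible genes (12.5%, 9.14 to 16.8), close to the share of all genes. Zfp251 and Zfp426 had 15 sites each and Zfp712 13. Gene models without a name gave 32 of 205 (15.6%, 11.3 to 21.2), among them 1600012H06Rik with 12 sites and 1700123O20Rik with 8. Solute carriers gave 9 of 127 (7.09%, 3.77 to 12.9), and their highest were Slc10a7, Slc16a13 and Slc26a2 with 4 each. Chosen after their values were seen, the proliferation marker Mki67 had 14 sites, the vesicle sorting gene Vps18 14 and the cyclin Ccnd2 13. Each had 0 DRACH sites in the cerebellum. Outside DRACH, Mki67 had 1 cerebellum site, on an exon, while Vps18 and Ccnd2 had 0. On the chromosomes, the share ran from 7.03% on chromosome 10 to 15.4% on chromosome 6, and all 19 autosomes held such genes.

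Position in the transcript was not used by the rule. Of the 3529 sites on complete coding isoforms, the 3′ UTR held 59.96% (58.3 to 61.6), the CDS 37.04% (35.5 to 38.6) and the 5′ UTR 3.004% (2.49 to 3.62). The last exon held 80.8% of them (79.5 to 82.1). Within 200 nt of the stop codon lay 28.5% (27.01 to 29.99), and 497 of the 755 genes had at least 1 site there. More than 1000 nt past the stop codon lay 13.3% (12.2 to 14.4). Among genes, 410 had more than 50% of their sites in the 3′ UTR and 195 had all of them there, while 186 had more than 50% in the CDS. A 5′ UTR majority was held by 11 genes.

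Compared with the 31133 coding-isoform sites that were listed in the cerebrum alone but lie in genes with a cerebellum DRACH site, the sites of the 755 genes were nearer the stop codon. There 19.4% lay within 200 nt of it (18.9 to 19.8), 54.1% in the 3′ UTR (53.5 to 54.6) and 72.7% in the last exon (72.2 to 73.2). The sites listed in both libraries had 21.8% near the stop codon (21.4 to 22.3) and 73.8% in the last exon (73.3 to 74.2). Each of these 2 sets holds only part of the cerebrum sites of its genes. Genes with a cerebellum DRACH site also had longer isoforms (median 4211 against 3396 nt) and more cerebrum sites (median 9 against 4). In those of the 755 genes with 5 or more sites, 25.2% of the sites lay near the stop codon. The genes with exactly 1 cerebellum DRACH site, the closest neighbours of the rule, had 30.5% near the stop codon (29.1 to 31.9), 61.7% in the 3′ UTR (60.1 to 63.2) and 80.3% in the last exon (79.0 to 81.5). These 3 intervals overlap those of the 755 genes. The first 250 nt past the stop codon held 22.6% (21.3 to 24.0) of the sites of the 755 genes and 25.01% (23.7 to 26.4) in these neighbouring genes, and these intervals overlap slightly.

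**Figure D5:**
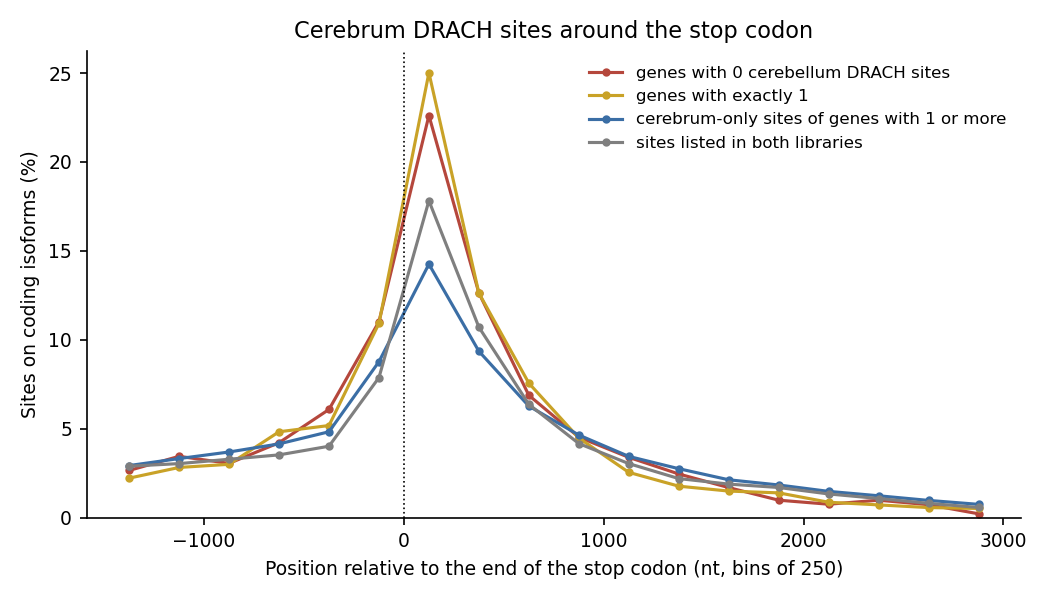
Percent of the coding-isoform sites of each set in bins of 250 nt around the end of the stop codon (position in nt, negative upstream). The first bin past the stop codon holds 22.6% of the sites of genes with 0 cerebellum DRACH sites, 25.01% for genes with exactly 1, 17.8% for sites of both libraries and 14.3% for cerebrum-only sites of genes with 1 or more.

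Introns held 192 of the 3858 sites (4.98%, 4.33 to 5.71), and 18 of these lay on an exon of another annotated gene. Exons of other isoforms held 3.55% (3.01 to 4.18), against 4.80% (4.21 to 5.47) in the genes with exactly 1 cerebellum site, whose interval does not overlap. In genes with a cerebellum DRACH site, the sites found in the cerebrum alone were intronic more often (12.3%, 11.9 to 12.6), while the genes with exactly 1 cerebellum site had 5.25% (4.63 to 5.95). Sites listed in both libraries were intronic less often than those of the 755 genes (2.07%, 1.93 to 2.22). All sites were intronic in 16 of the 755 genes and more than 50% of the sites in 30. In the 16 genes, among them Cerkl, no site sits on an annotated mRNA of the gene.

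GGACT was the most frequent 5-mer with 523 of the 3858 sites (13.6%, 12.5 to 14.7), followed by GAACT with 517 (13.4%, 12.4 to 14.5), AGACT with 477 (12.4%, 11.4 to 13.4) and TGACT with 430 (11.1%, 10.2 to 12.2). In the genes with exactly 1 cerebellum DRACH site the order began with GGACT at 13.9% (12.9 to 14.96) and continued with AGACT at 12.7% and GAACT at 12.7%, all with overlapping intervals. Cerebrum-only sites of genes with a cerebellum site had fewer GAACT (11.1%, 10.8 to 11.4) and TGACT (9.003%, 8.72 to 9.30) than the 755 genes. Sites listed in both libraries had 13.8% GAACT (13.5 to 14.2) and 10.02% TGACT (9.71 to 10.3). Both of these intervals overlap those of the 755 genes. The letters are those of the DNA, in which T stands for U.

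On the spliced isoform, the median distance from a site to the nearest other cerebrum DRACH site was 83 nt, against 89 nt in the genes with exactly 1 cerebellum site, and 39.1% were within 50 nt of it, against 35.6%. The GC content of the 101 nt around the sites had a median of 46.5% in both sets. The longest coding isoform had a median of 3396 nt and 67 DRACH adenosines, close to the 3410 nt and 67 of the genes with exactly 1 cerebellum site. All genes with a cerebellum DRACH site had 4211 nt and 84. The isoform had 1 exon in 23 of the 744 genes (3.09%), against 13 (1.51%) of the genes with exactly 1 cerebellum site. Among all genes with a cerebellum DRACH site and a complete coding isoform, 142 (2.42%) had 1 exon.

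Sites outside the DRACH motif were not used by the rule. They carry no read counts and do not measure coverage. Of the 755 genes, 232 had at least 1 cerebellum site outside DRACH (30.7%, 27.5 to 34.1), and in 195 of them such a site lay on an exon. There were 464 such sites, 317 of them exonic, and 126 genes had exactly 1. The genes with exactly 1 cerebellum DRACH site had one in 424 of 874 (48.5%, 45.2 to 51.8), a higher share. Those genes were chosen for holding a site in the same cerebellum library, so this difference is not independent of the rule. The most were found in Egfem1, with 16 and none on an exon. Xylt1, a xylosyltransferase of proteoglycan synthesis, had 15 with 2 on exons, and Wasl, the actin regulator N-WASP, 11 with 4 on exons. Ptn, the growth factor pleiotrophin, had 10 with 5 on exons, and Sgcd, delta-sarcoglycan, 10 with none.

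The other 523 genes had no cerebellum site of any context. In the cerebrum, 659 of the 755 genes also had sites outside DRACH, 3322 in all. Among the 25 genes with the most sites, 20 had no cerebellum site of any context, and the exceptions were Trpc4, Nr4a3 and Lzts1 with 1 each and Kcnj3 and Epha3 with 2 each. These 25 genes together had 7 cerebellum sites outside DRACH against 369 in the cerebrum.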

How the data were processed

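The authors mapped GLORI reads of each library to mm10 and to a copy carrying the PWK bases, used GLORI-tools to call sites, merged both sets per library and kept those above a minimum methylation rate and read count. The deposited values are genomic positions with strand (1 nt each), without rates or counts. The tissue of each list was taken from the sample record, and the name of the cerebrum list also carries the abbreviation used for the cerebellum.

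The 5-mer of each site was read from GRCm38, the assembly that mm10 names. Genes were GENCODE mouse release M21, which differs from the release of the study. Regions came from the longest complete coding isoform covering a site, then other exons, then introns. Shares have 95% Wilson intervals (scipy 1.17.1). Sequences used samtools 1.23.1 and pysam 0.24.0, computations Python 3.11.15 and figures matplotlib 3.10.9. Assignment of sites to genes and regions was tested on simulated data.

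The members, the 16 gene lists and the 10 symbol classes were chosen with earlier results of these data known. Named genes were the 25 with the most sites, up to 4 list members in full, up to 3 of the 3 largest symbol classes, the 5 with the most cerebellum sites outside DRACH and 5 just outside the rule. Alternatives varied the site minimum, motif, gene interval, isoform and windows. Methylation levels and allelic differences were not analysed here, and some genes that the rule names are not reported here.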

Additional observations from a re-analysis of the deposited data

How the results depend on the processing

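The share of eligible genes without a cerebellum DRACH site, 11.2%, was 7.78% when a cerebellum site of any context removed a gene, 16.5% from 2 cerebrum sites up and 5.60% from 5 up. The number of genes was then 1299 from 2 sites up and 281 from 5 up, the latter with 2304 different sites. From 5 sites up, 56.4% of the sites lay in the 3′ UTR, 40.8% in the CDS and 25.2% near the stop codon. With each gene counted once, these shares were 62.1%, 34.9% and 32.0%, and introns held 6.35%. A stop codon window of 400 nt held 45.9%. In the genes without any cerebellum site the last exon held 83.2%. Exonic sites outside DRACH were found in the cerebellum for 25.8% of the genes. The other 35 values under the alternatives run stayed within the counting error or within 1.5 times the count. Counting exonic sites alone kept 699 of the 755 genes, leaving out shared sites 721, extending genes by 5000 nt 740, which loses Klhl11, and the RRACH motif 571. Requiring 0 cerebellum sites of any context kept 523 and loses Epha3, Kcnj3, Lzts1, Nr4a3 and Trpc4. The unknown depth of both libraries limits every absence. No paired analysis was possible because each tissue has 1 library.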

Other observations

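The X chromosome was outside the rule. On it, 21 of the 215 protein-coding genes with 3 or more cerebrum DRACH sites had 0 in the cerebellum (9.77%), against 11.2% on the autosomes. The highest were Akap17b with 14 cerebrum sites, the zinc finger gene Zfp182 with 13 and Mbtps2, a membrane protease of sterol signalling, with 9. Outside DRACH, these genes had 2, 1 and 3 cerebellum sites in the same order. Further down the ranking, the cation channel Trpc5 had 6 cerebrum sites, with 0 cerebellum sites of any context.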
